A study of Mus musculus with 6 samples.

Results

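Blood and lymphatic endothelial genes were examined in cold-exposed brown fat of mice with and without adipocyte Adcy3. The set holds 33 genes, chosen by symbol as pan-endothelial, arterial, capillary and lymphatic endothelial genes, out of 54385 genes in the table. Of these, 32 passed the filter on low counts and were tested, and Mmrn1 did not. Polyadenylated RNA was prepared from the interscapular brown fat pad, a thermogenic depot, of C57BL/6N mice that ate chow for 20 weeks and then spent 24 hours at 5 °C. Control mice (3 libraries) carried floxed Adcy3 on both alleles and no Cre (Adcy3-FL/FL/Adipoq-wt/wt). Knockout mice (3 libraries) carried the same floxed alleles with Adipoq-Cre (Adcy3-FL/FL/Adipoq-wt/cre). This Cre is driven by the promoter of an adipocyte gene, so that endothelial cells were not the cells targeted. All mice of both groups were thus floxed and cold-exposed, and the groups differed by the Cre as well as by the deletion. The series design text gives an age of 20 weeks, names another depot and more replicates, and does not mention the cold. Tissue, treatment and groups were taken from the sample labels.

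Endothelial cells line blood and lymphatic vessels. Vascular endothelial growth factor (VEGF) made by surrounding cells acts through the receptors Kdr and Flt1 on blood endothelium and Flt4 on lymphatic endothelium, while angiopoietins act through Tek and Notch ligands such as Dll4 set arterial character. Brown fat is among the most densely vascularised tissues, since its heat and fuel are carried by blood, and its adipocytes secrete VEGF in the cold.

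Total estimated counts per library ranged from 13956786 to 17538044. The targeted gene Adcy3 was at 135 to 169 CPM (counts per 1000000, on library sizes scaled by TMM) among controls and at 21.9 to 30.3 CPM among knockouts (log2 fold change -2.60 ± 0.17, SE; edgeR adjusted p = 0.00146). Ucp1, the uncoupling protein that defines brown adipocytes, was at 5398, 6008 and 5850 CPM among controls and 7161, 7111 and 7592 CPM among knockouts. Every knockout was above every control (background 7.63% of all genes tested), with a log2 fold change of 0.34 ± 0.09 (SE; edgeR adjusted p = 0.235). Of 5 brown adipocyte markers, 2 lay above without overlap, 5 had positive log2 fold changes and 0 were called (background 0.0609%). Skeletal muscle transcripts set libraries apart. The summed level of 12 muscle markers was 11557 to 16336 CPM among controls, but 7369, 504 and 26.6 CPM in knockout libraries 1, 2 and 3. Knockout library 1 also differed from the others in how its deviations followed transcript length, as described below. In bulk tissue, fewer cells of a type and less RNA per cell cannot be told apart.

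Endothelial genes of blood vessels overlapped between the genotypes in 28 of 29 cases, the exception being Vwf (background 18.4% of all genes tested without overlap). The 33 genes together made up 0.130% to 0.179% of counts among controls and 0.131% to 0.160% in knockouts. Their summed level was 1438 ± 210 CPM among controls and 1503 ± 125 CPM among knockouts (SD, n = 3 each), and the groups overlapped. None of the 32 tested genes was called higher (background 0.0271% of all 14767 genes tested) and none was called lower (background 0.0339%, and 0.0609% in either direction) by edgeR's quasi-likelihood test at an adjusted p under 0.05. DESeq2 called none of the 32 (background 2.08%) and limma-voom none (background 0.223%). At an unadjusted p under 0.05, edgeR gave 0 of 32 higher (background 2.87%) and 1 lower, which was Vwf (background 7.60%, and 10.5% in either direction). The median log2 fold change (knockout over control) was 0.03 over the set and 0.01 over all genes tested, and 19 of 32 were positive (background 51.7%). With no scaling of library sizes the median of all genes moved to -0.09, that of the set moved to -0.08, and 10 of the small positive values turned negative. Leaving out the lymphatic genes, the 29 others lay between -0.47 (Vwf) and 0.25 (Esam), against Prox1 at -1.75 and Pdpn at -0.83.

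The precision of this comparison can be read from the intervals. The 95% interval of the log2 fold change lay within -1 and 1, that is within a 2-fold change either way, for 30 of 32 genes (background 70.0%), the exceptions being Prox1 and Pdpn. Among those with a mean of at least 5 CPM it did so for 27 of 27 (background 91.2%). Intervals were narrowest for Pecam1, which excluded a fold below 0.814 or above 1.19, and were wide for genes that varied between libraries of one group, such as Cldn5 (0.527 to 1.66).

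**Figure D1:**
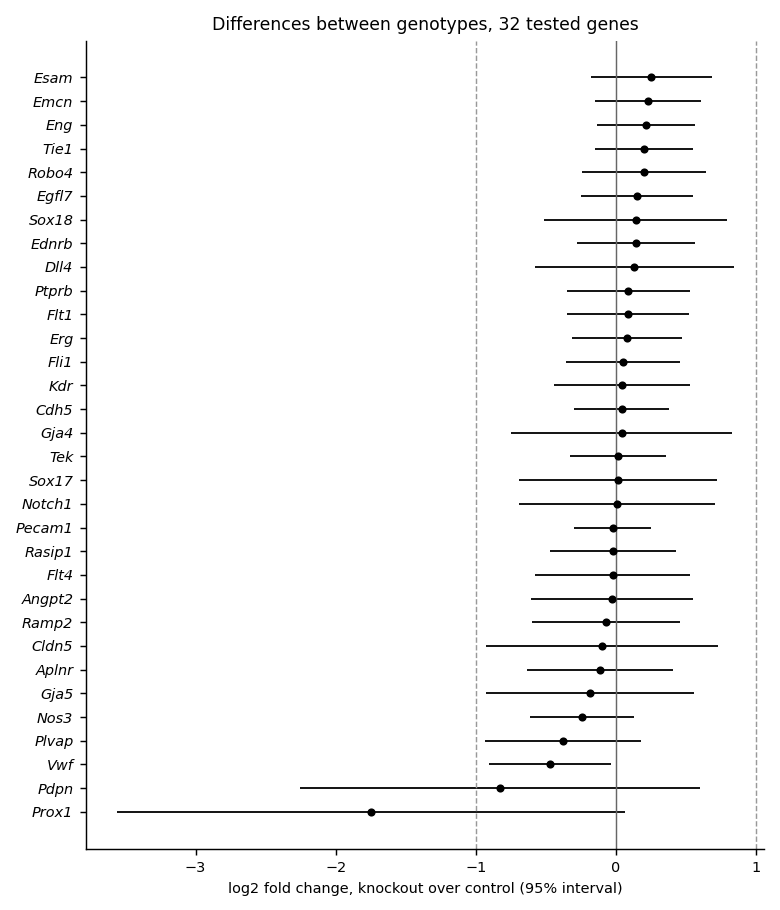
Log2 fold change of each tested endothelial gene, knockout over control, with its 95% interval from edgeR (x axis, log2 units); dashed lines mark a 2-fold change. All intervals but those of Prox1 and Pdpn lie between the dashed lines, and that of Vwf, at -0.90 to -0.03, does not include 0.

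Per kilobase of exon, levels within the set spanned a wide range. Cdh5 was highest at 41.9 ± 4.49 CPM per kilobase in controls, followed by Eng at 33.5 ± 5.73, Cldn5 at 25.4 ± 5.40 and Kdr at 22.4 ± 4.06 (SD, n = 3 each). Cldn5 and Kdr lay within 1 SD of each other, whereas the gaps from Cdh5 to Eng and from Eng to Cldn5 were larger than either gene's SD. At the low end were Angpt2 at 0.642 ± 0.0892, Gja5 at 0.575 ± 0.137, Prox1 at 0.305 ± 0.112 and Mmrn1 at 0.116 ± 0.0354 CPM per kilobase (SD, n = 3 each). Cdh5 and Mmrn1 also headed and closed the order in knockouts, with Cdh5 at 43.1 ± 5.78 and Mmrn1 at 0.0308 ± 0.0438 (SD, n = 3 each).

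**Figure D2:**
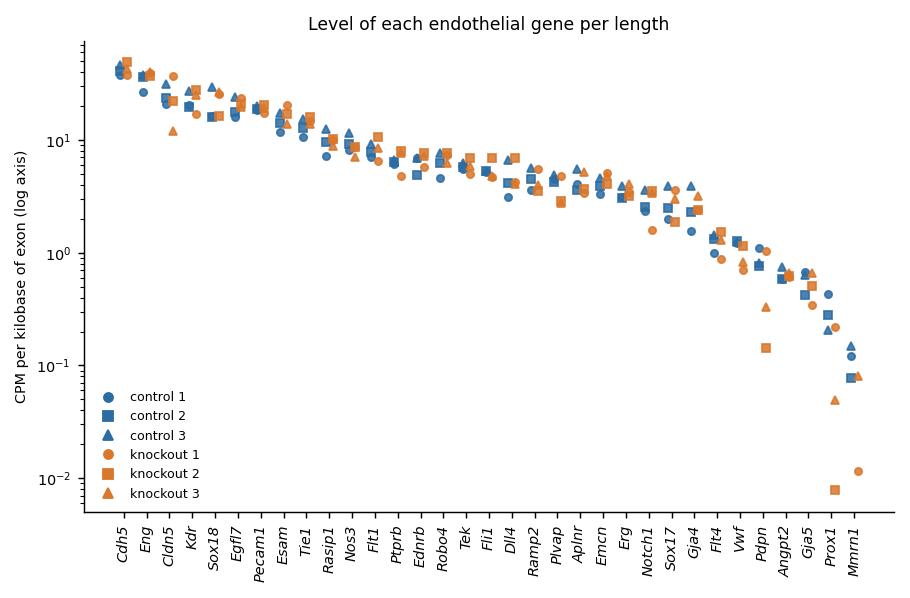
Level of each of the 33 genes in CPM per kilobase of exon (y axis, log scale), ordered by the control mean, 1 point per library; a level of 0 cannot be drawn on this axis (Mmrn1 in knockout library 2). Blue and orange points intermix for most genes, and the knockout points of Prox1, Pdpn and Mmrn1 reach far below the controls.

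Genes of endothelial junctions and adhesion overlapped between genotypes in 8 of 8 cases (background 18.4% of all genes tested without overlap). Cdh5 (ENSMUSG00000031871, GRCm38 chromosome 8, 104101625 to 104144511, plus strand) encodes VE-cadherin, the adhesion molecule of endothelial junctions. It stood at 159, 173 and 196 CPM in control libraries 1 to 3 and at 158, 206 and 180 CPM in knockout libraries 1 to 3, a log2 fold change of 0.04 ± 0.15 (SE; 95% interval -0.30 to 0.38). The spread within each group was larger than the difference. Pecam1 (ENSMUSG00000020717, chromosome 11, 106654217 to 106750628, minus strand), which encodes the adhesion molecule CD31, stood at 116, 118 and 126 CPM among controls and 108, 128 and 119 CPM among knockouts. Its log2 fold change was -0.02 ± 0.12 (SE), the smallest standard error of the set. Emcn, a sialomucin of capillaries and veins with the smallest p of this group, was at 18.1, 21.2 and 25.0 CPM among controls and 27.5, 21.8 and 25.9 CPM among knockouts. Knockout libraries 1 and 3 were above every control and library 2 was not, and the log2 fold change was 0.23 ± 0.16 (SE; edgeR adjusted p = 0.679). Esam, another junctional adhesion molecule, was at 0.25 ± 0.19, and Robo4, a guidance receptor that stabilises vessels, at 0.20 ± 0.19 (log2 fold change, SE). Ptprb, the phosphatase that acts on Tek and VE-cadherin, was at 0.09 ± 0.19, and Rasip1, needed for vessel lumens, at -0.02 ± 0.20 (log2 fold change, SE). Cldn5, the claudin of endothelial tight junctions, varied most among the knockouts of this group of genes. It was at 29.8, 33.5 and 44.5 CPM among controls and at 52.3, 31.4 and 17.2 CPM among knockouts, so that both the highest and the lowest library were knockouts.

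Receptors of the VEGF, angiopoietin and TGF-beta systems also had overlapping groups, in 6 of 6 cases (background 18.4% of all genes tested without overlap). Kdr (ENSMUSG00000062960, chromosome 5, 75932827 to 75978458, minus strand), the main signalling receptor for VEGF, stood at 186, 177 and 244 CPM among controls and 153, 249 and 224 CPM among knockouts. The groups overlapped and the log2 fold change was 0.05 ± 0.21 (SE; 95% interval -0.44 to 0.53). Flt1, a high-affinity VEGF receptor that also exists as a soluble decoy, was at 0.09 ± 0.19, Tek, the angiopoietin receptor, at 0.02 ± 0.15, and Tie1, its partner, at 0.20 ± 0.15 (log2 fold change, SE). Eng, the TGF-beta and BMP co-receptor endoglin, had the smallest p of this group. It stood at 109, 145 and 152 CPM among controls and 159, 149 and 163 CPM among knockouts, with 2 knockouts above every control (log2 fold change 0.21 ± 0.15, SE; edgeR adjusted p = 0.671). Angpt2, the ligand by which endothelial cells antagonise Tek, was scarce and even, at 2.18, 2.18 and 2.75 CPM among controls and 2.23, 2.28 and 2.43 CPM among knockouts. The ratios of Angpt2 to Tek (0.0855 ± 0.00731 against 0.0843 ± 0.0124), Flt1 to Kdr (0.540 ± 0.0504 against 0.553 ± 0.0404) and Flt4 to Kdr (0.0516 ± 0.00956 against 0.0486 ± 0.00196) within a library were compared between controls and knockouts (mean ± SD, n = 3 each). Exact two-sided permutation tests gave p = 1, p = 0.9 and p = 0.8, with an adjusted p of 1 over the 6 ratios tested, where 3 against 3 cannot go below 0.1.

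Of the 4 transcription factors, all had overlapping groups (background 18.4% of all genes tested without overlap). Erg, an ETS factor that maintains endothelial identity, averaged 11.7 ± 1.68 CPM among controls and 12.4 ± 1.63 CPM among knockouts (SD of 3 libraries each), a log2 fold change of 0.08 ± 0.17 (SE). Fli1, a related ETS factor also made by blood cells, was at 0.05 ± 0.18 (SE). Sox17 and Sox18, SOX factors of arterial and lymphatic development, varied more and in step. Sox18, which had the smallest p of the 4, was at 26.6, 25.8 and 48.1 CPM among controls and 41.8, 26.2 and 42.9 CPM among knockouts. Sox17 was at 9.48, 11.9 and 18.8 CPM among controls and 17.1, 9.00 and 14.3 CPM among knockouts. Control library 3 was highest for both genes and knockout library 2 was among the lowest, so the spread within each group exceeded the difference between them.

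Among vasoactive and secreted products, Vwf was the one gene of the 33 whose genotypes did not overlap. Vwf (ENSMUSG00000001930, chromosome 6, 125546774 to 125686679, plus strand) encodes von Willebrand factor, a clotting protein stored by endothelial cells, mainly those of veins and larger vessels, and by platelets. It stood at 19.6, 20.2 and 19.9 CPM among controls and at 11.3, 18.4 and 13.4 CPM among knockouts. Every knockout library was below every control (background 10.8% of all genes tested), and the controls were close together while the knockouts spread. The means were 19.9 ± 0.306 and 14.4 ± 3.67 CPM (SD of 3 libraries). The log2 fold change was -0.47 ± 0.19 (SE; edgeR adjusted p = 0.446), so it did not pass over all genes. Leaving out 1 library moved it between -0.69 (without knockout library 2) and -0.32 (without knockout library 1), with no call. Pf4, a platelet gene, was at 3.47, 2.81 and 3.42 CPM among controls and 4.47, 1.04 and 1.48 CPM among knockouts, and Itga2b, another, had a log2 fold change of 0.33. The platelet genes Ppbp and Gp9 had too few counts to be tested. The 4 platelet markers summed to 6.18 to 6.70 CPM among controls and 4.50 to 8.26 CPM among knockouts, and their part in the Vwf value was not tested. Nos3, the endothelial nitric oxide synthase, was at 33.6, 37.9 and 47.5 CPM among controls and 35.7, 35.7 and 29.1 CPM among knockouts (log2 fold change -0.24 ± 0.16, SE; edgeR adjusted p = 0.643). Egfl7, a secreted factor that hosts miR-126, Ramp2, which pairs with the adrenomedullin receptor, and Ednrb, an endothelin receptor, were at 0.15, -0.07 and 0.14 (log2 fold change). Exons of Nos3 overlap those of Atg9b and Gm15587 on the opposite strand and exons of Ramp2 those of Vps25 on the same strand. In all, 10 of the 33 genes share exonic bases with another annotated gene, and whether strand entered the counting is not given in these sources, so their levels are less certain.

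Neither capillary gene was called (background 0.0609% of all genes tested), and both had overlapping groups (background 18.4% without overlap). Plvap, which forms the diaphragms of fenestrae and caveolae, was at 8.95, 8.36 and 9.65 CPM among controls and 9.61, 5.67 and 5.52 CPM among knockouts. Knockout library 1 lay within the control range and the other 2 below it (log2 fold change -0.38 ± 0.24, SE; edgeR adjusted p = 0.631). The ratio of Plvap to Pecam1 was 0.0749 ± 0.00358 among controls and 0.0600 ± 0.0253 among knockouts (SD of 3 libraries each; exact permutation test, two-sided, p = 0.4). Aplnr, the receptor for apelin, was at 15.2, 13.4 and 20.6 CPM among controls and 12.5, 13.5 and 19.4 CPM among knockouts (log2 fold change -0.11 ± 0.23, SE).

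Arterial and Notch genes were at or near 0 on average and among the most variable. Gja5, the arterial gap junction protein connexin 40 and the member of this group with the smallest p, stood at 3.89, 2.41 and 3.62 CPM among controls and 1.96, 2.93 and 3.80 CPM among knockouts (log2 fold change -0.18 ± 0.32, SE; edgeR adjusted p = 0.891). Gja4, connexin 37, was at 0.04 ± 0.34, Dll4, the Notch ligand of arterial and tip cells, at 0.13 ± 0.31, and the receptor Notch1 at 0.01 ± 0.30 (log2 fold change, SE). Knockout library 1 had 22.5 CPM of Notch1 and the other knockouts 50.7 and 47.9 CPM, on both sides of the controls at 33.3, 36.1 and 51.1 CPM. The ratio of Dll4 to Notch1 was 0.436 ± 0.0673 among controls and 0.525 ± 0.196 among knockouts (SD of 3 libraries each; exact permutation test, two-sided, p = 0.6).

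**Figure D3:**
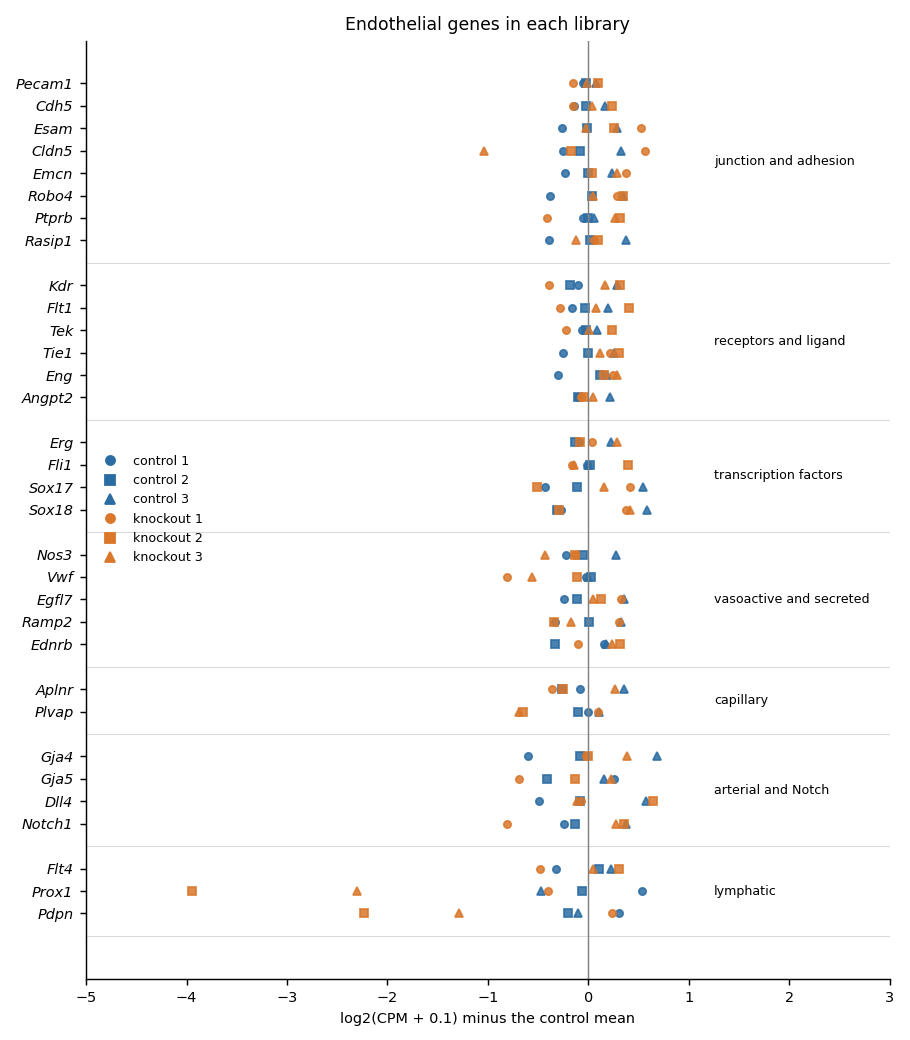
Deviation of each tested gene from its control mean in every library (x axis, log2 of CPM plus 0.1), grouped by role; circles, squares and triangles are libraries 1, 2 and 3, blue for control and orange for knockout. Most points lie within 0.5 of 0, and the far-left points are Prox1 and Pdpn in knockout libraries 2 and 3.

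Of the lymphatic genes, Prox1, Pdpn and Mmrn1 were scarce, and Flt4 averaged 10.4 CPM among controls. Prox1 and Pdpn were lowest in knockout libraries 2 and 3, Mmrn1 in knockout libraries 1 and 2, and Flt4 did not separate the genotypes. Prox1 (ENSMUSG00000010175, chromosome 1, 190118035 to 190170714, minus strand) encodes the homeobox factor that sets lymphatic endothelial identity and is also made in skeletal muscle and other tissues. It stood at 3.59, 2.35 and 1.74 CPM among controls and at 1.83, 0.0652 and 0.416 CPM among knockouts, the last 3 from 27, 1 and 7 counts. Knockout library 1 lay inside the control range and the other 2 far below it. The log2 fold change was -1.75 ± 0.79 (SE; 95% interval -3.56 to 0.07; edgeR adjusted p = 0.494). Without knockout library 1 it was -3.34 and passed (edgeR adjusted p = 0.0128, a fit in which 5.64% of all genes tested were called), and with no low-count filter it was -1.73 and passed (edgeR adjusted p = 0.00577, where 2.80% were called). Over the other alternatives the adjusted p ranged from 0.210 to 0.862. The summed muscle markers were 16336, 14832.5 and 11557 CPM in control libraries 1 to 3, the same order as Prox1. Among the knockouts both were highest in library 1. The muscle sum was lowest in library 3 and Prox1 in library 2, a difference of order that rests on 1 count of Prox1 against 7. All 12 muscle markers had negative log2 fold changes (median -2.33), and their part in the value of Prox1 was not tested. An antisense gene, Prox1os, overlaps 133 exonic bases of Prox1.

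Pdpn (ENSMUSG00000028583, chromosome 4, 143267431 to 143299564, minus strand) encodes podoplanin, a mucin-like protein of lymphatic endothelium that fibroblasts and mesothelium also make. It stood at 2.00, 1.37 and 1.47 CPM among controls and 1.90, 0.261 and 0.594 CPM among knockouts, the same pattern over the knockouts as Prox1 (log2 fold change -0.83 ± 0.62, SE; edgeR adjusted p = 0.694). Without knockout library 1 the log2 fold change was -1.89 (edgeR adjusted p = 0.0738), without knockout library 2 it was -0.39 (adjusted p = 0.798), and over all alternatives none was called. Its ratio to Flt4 was 0.165 ± 0.0705 among controls and 0.112 ± 0.129 among knockouts (SD of 3 libraries each; exact permutation test, two-sided, p = 0.4), and the log2 difference of this ratio, -1.22, moved between -2.20 and -0.37 when 1 library was left out. The 7 fibroblast markers summed to 410 to 601 CPM among controls and to 375, 275 and 232 CPM in knockout libraries 1 to 3. Of these markers, 7 of 7 were negative and 0 called (background 0.0609% of all genes tested), with a median log2 fold change of -0.68. Of the mesothelial markers, Upk3b and Wt1 were at 0 counts in all 6 libraries and the 5 summed to 1.90 to 3.35 CPM. The part of these cells in the Pdpn value was not tested. Mmrn1 (multimerin 1, made by lymphatic endothelium and platelets) had 12, 8 and 13 counts among controls and 1, 0 and 8 counts in knockouts, or 0.458 to 0.871 CPM and 0 to 0.475 CPM, and was not tested. The libraries of the genotypes overlapped, and the floor of 3 counts is 0.172 to 0.203 CPM. Flt4 (ENSMUSG00000020357, chromosome 11, 49609263 to 49652739, plus strand), the receptor for VEGF-C and VEGF-D that marks lymphatic and some blood endothelium, did not share this pattern. It stood at 8.13, 11.0 and 11.9 CPM among controls and 7.31, 12.6 and 10.6 CPM among knockouts (log2 fold change -0.02 ± 0.24, SE; 95% interval -0.57 to 0.53).

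Promoter sequences are shown for 2 blood endothelial receptors, Flt1 and Tie1, whose log2 fold changes were 0.09 and 0.20. They are also shown for Pdpn and Prox1, the tested lymphatic genes that were lowest in knockout libraries 2 and 3. Each is the 250 bases before a RefSeq start site on GRCm38.p6, minus strand, written 5′ to 3′. RefSeq held windows for 20 of the 33 genes (25 windows). The Prox1 start used lies outside the GENCODE gene, which ends at base 190170714, and the bases after it did not open a GENCODE transcript of Prox1. Most of the Tie1 stretch lies inside the GENCODE gene, which reaches base 118490061. Capitals mark AGGAAG (an ETS motif), ACAAAG (SOX), TGGGAA (RBPJ) and CACCC (KLF) on either strand, with neighbouring matches run together where they overlap.
Flt1, chr5:147726012-147726261: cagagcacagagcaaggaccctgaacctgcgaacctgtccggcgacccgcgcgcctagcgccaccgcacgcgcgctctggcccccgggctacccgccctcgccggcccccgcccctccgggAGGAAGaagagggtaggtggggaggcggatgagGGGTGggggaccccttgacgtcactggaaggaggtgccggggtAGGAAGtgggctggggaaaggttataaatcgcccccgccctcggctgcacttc
Tie1, chr4:118489850-118490099: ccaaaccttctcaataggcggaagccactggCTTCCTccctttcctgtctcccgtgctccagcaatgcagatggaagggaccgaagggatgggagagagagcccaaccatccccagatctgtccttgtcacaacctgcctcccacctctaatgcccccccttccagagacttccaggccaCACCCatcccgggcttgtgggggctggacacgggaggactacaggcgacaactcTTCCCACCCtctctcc
Pdpn, chr4:143299565-143299814: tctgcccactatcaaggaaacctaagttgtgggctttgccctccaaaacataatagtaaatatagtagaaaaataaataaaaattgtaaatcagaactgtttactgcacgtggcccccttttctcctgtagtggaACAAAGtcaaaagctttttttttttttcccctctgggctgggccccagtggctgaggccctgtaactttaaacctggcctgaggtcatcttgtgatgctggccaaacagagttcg
Prox1, chr1:190170828-190171077: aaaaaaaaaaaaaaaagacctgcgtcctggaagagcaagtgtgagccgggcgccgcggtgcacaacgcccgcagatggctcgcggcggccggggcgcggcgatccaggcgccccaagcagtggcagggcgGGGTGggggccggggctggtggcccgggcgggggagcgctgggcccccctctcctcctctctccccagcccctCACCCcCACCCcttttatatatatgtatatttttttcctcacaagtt
In windows of 300 bases, from 250 before to 50 after the start, the ETS motif AGGAAG was present in 10 of the 25 endothelial windows (40.0%) and in 35.4% of all 32851 promoters. It occurred at 2 places in the Flt1 window and at 2 in the Tie1 window, of which 1 lies after the start site and is not printed, and those letters were not in the Pdpn and Prox1 windows shown. The SOX motif was in 24.0% of endothelial windows against 18.7% of all, the RBPJ motif in 24.0% against 25.6% and the KLF motif in 76.0% against 57.5%. These matches describe letters only, and shorter forms of the ETS site were not counted.

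A list of other endothelial genes, which shares no gene with the 33, was not called either. Of 34 such genes 32 were tested, and 0 were called in either direction (edgeR adjusted p under 0.05, background 0.0609% of all genes tested). At an unadjusted p under 0.05, edgeR gave 0 higher (background 2.87%) and 3 lower (background 7.60%). Their median log2 fold change was -0.01, with 16 positive and 16 negative. The 3 with the smallest p were scarce genes of venules and lymphatics. They were picked by p and do not stand for all venous genes. Nr2f2 and Vcam1 of the same list were at 0.13 and -0.02 (log2 fold change). Emcn, of capillaries and veins, was at 0.23. Reln, Stab2 and Ccl21a of the list, also scarce, were at -0.64, -0.81 and -1.08, with overlapping groups. Ackr1, the chemokine-binding receptor of venules, was at 1.06, 0.917 and 1.27 CPM among controls and 0.406, 0.130 and 0.0594 CPM among knockouts, from 18, 16 and 19 counts against 6, 2 and 1. Ackr1 was 1 of 3 among the 32 tested genes of the list with every knockout below every control (background 10.8% of all genes tested). Its log2 fold change was -2.43 ± 0.60 (SE; edgeR adjusted p = 0.223). Selp, the P-selectin of activated venules and platelets, was at 1.18, 1.15 and 1.01 CPM among controls and 0.542, 0.391 and 0.119 CPM among knockouts, again without overlap (-1.66 ± 0.52, SE; edgeR adjusted p = 0.310). Lyve1, the hyaluronan receptor of lymphatic vessels and some macrophages, was at 4.71, 3.04 and 3.95 CPM among controls and 3.05, 1.37 and 1.07 CPM among knockouts, where knockout library 1 reached the lowest control (-1.10 ± 0.41, SE; edgeR adjusted p = 0.408). Bmx, an arterial kinase, was the fourth, at 0.824, 1.26 and 0.804 CPM among controls and 0.677, 0.587 and 0.356 CPM among knockouts (-0.84 ± 0.43, SE; edgeR adjusted p = 0.547), so that every knockout was below every control. Tspan12, a tetraspanin of retinal vessel signalling, was the one gene of the list with every knockout above every control (background 7.63%). It was at 151, 148 and 151 CPM among controls against 156, 183 and 185 CPM (0.22 ± 0.12, SE; edgeR adjusted p = 0.585). Without knockout library 1 Ackr1 (-3.43, edgeR adjusted p = 0.0150) and Lyve1 (adjusted p = 0.0162) passed, a fit in which 5.64% of all genes tested were called. With no low-count filter Ackr1 passed, where 2.80% were called. Over the other alternatives the adjusted p of Ackr1 ranged from 0.0989 to 0.646. The macrophage markers moved with Lyve1: 5 of 5 had negative log2 fold changes (median -0.66), and 0 were called (background 0.0609% of all genes tested). Their sum was 37.1 to 65.6 CPM among controls and 43.5, 29.1 and 26.4 CPM in knockout libraries 1 to 3. Their part in the Lyve1 value was not tested.

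**Figure D4:**
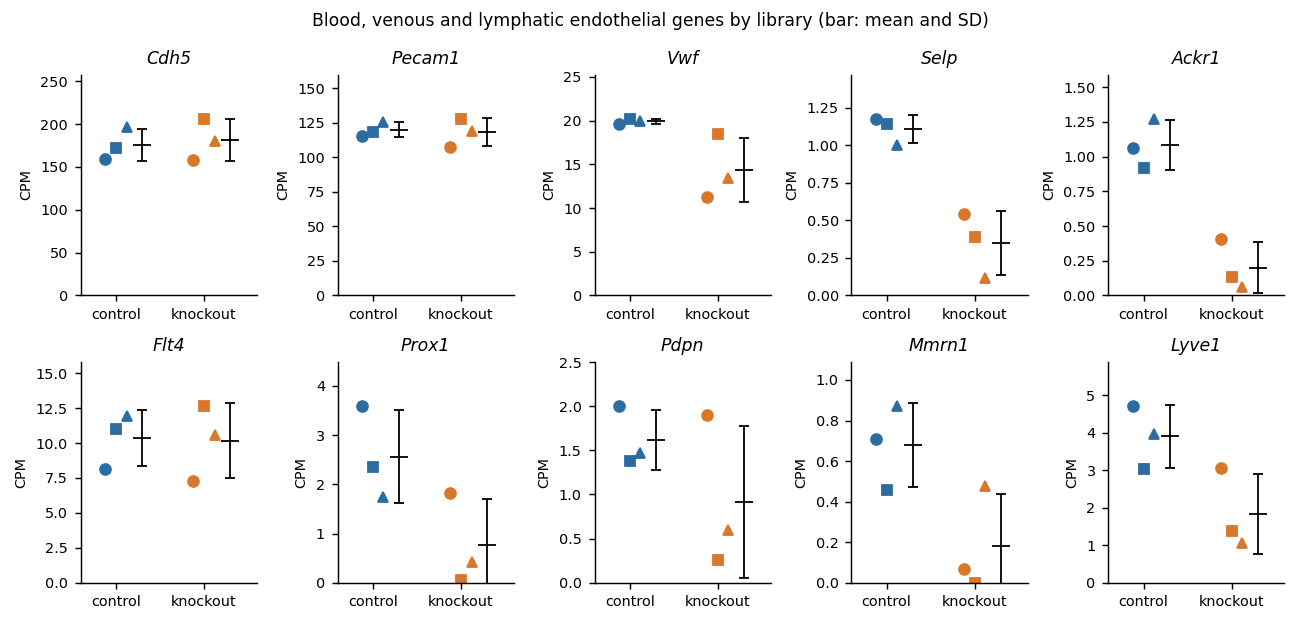
CPM of 10 endothelial genes in each library (y axes start at 0; points are libraries 1 to 3 as circle, square and triangle; black bars are mean and SD, which end at the axis where they would pass below 0). Cdh5, Pecam1 and Flt4 overlap between genotypes, every knockout lies below every control for Vwf, Selp and Ackr1, and knockout libraries 2 and 3 are low for Prox1, Pdpn and Lyve1.

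The ligands and partners of these receptors were likewise not called. Of 44 signalling genes 37 were tested, with 0 higher and 0 lower by edgeR (background 0.0609% of all genes tested in either direction). At an unadjusted p under 0.05, edgeR gave 1 higher (background 2.87%) and 2 lower (background 7.60%). The median log2 fold change was 0.04. Vegfa, the main VEGF of brown adipocytes, was at 424, 548 and 466 CPM among controls and 459, 595 and 532 CPM among knockouts, with overlapping groups (0.14 ± 0.15, SE; edgeR adjusted p = 0.803). It was named after its values were seen. The 4 partners with the smallest p each had groups that did not overlap. Vegfd, a ligand of Flt4 made by stromal cells, was at 2.47, 2.35 and 2.28 CPM among controls and 1.49, 1.04 and 1.37 CPM among knockouts (-0.86 ± 0.28, SE; edgeR adjusted p = 0.337). Angpt1, the activating ligand of Tek made by perivascular and stromal cells, was at 7.95, 4.70 and 4.49 CPM among controls and 3.93, 3.32 and 2.85 CPM among knockouts (-0.76 ± 0.29, SE; edgeR adjusted p = 0.406). Ramp3, an alternative partner of the adrenomedullin receptor, was higher in every knockout, at 2.12, 2.52 and 1.47 CPM among controls against 4.06, 3.26 and 3.27 CPM (0.78 ± 0.28, SE; edgeR adjusted p = 0.387). Dll1, a Notch ligand, was at 4.53, 4.53 and 4.96 CPM among controls and 4.26, 2.87 and 3.21 CPM among knockouts (-0.44 ± 0.23, SE; edgeR adjusted p = 0.560). Vegfc, the other ligand of Flt4, went the opposite way to Vegfd, with every knockout above every control, at 1.47, 1.09 and 1.01 CPM against 1.69, 1.63 and 1.90 CPM (0.55 ± 0.31, SE; edgeR adjusted p = 0.589). Of the 37 tested, 2 thus lay above and 3 below without overlap. Among all genes tested, 7.63% had every knockout above every control and 10.8% had every knockout below. Markers of pericytes and smooth muscle, the cells that wrap vessels, summed to 508 to 565 CPM among controls and 442 to 613 CPM among knockouts. Rgs5 alone averaged 277 and 324 CPM, so the sum says little of the others. Of the 10, 0 were called (background 0.0609% of all genes tested), and 5 log2 fold changes were positive and 5 negative. Every knockout was below every control for 2 of them, Myh11 (-0.53) and Abcc9 (-0.43), and above for 0.

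Deviations of the endothelial genes in knockout library 1 followed transcript length. Splitting the 32 tested genes at their median exon length of 4167.5 bases, the 16 shorter ones lay a median of 0.08 above their control means in knockout library 1 and the 16 longer ones 0.25 below (log2 of CPM plus 0.1: 0.08 and -0.25). In knockout library 2 the order was the other way, with medians of -0.06 and 0.27, and in library 3 they were -0.07 and 0.09. All genes tested, split at the same length, gave 0.21 and -0.18 in knockout library 1, -0.03 and 0.04 in library 2, and 0.02 and -0.01 in library 3. Across the 32 genes, which share libraries and are not independent, Spearman's rho between length and deviation was -0.68 in knockout library 1, 0.40 in library 2 and 0.15 in library 3, and between -0.32 and 0.23 in the controls. Vwf, with 16064 exonic bases the longest of the 33, was lowest in knockout library 1, at a deviation of -0.81, and was also below its controls in libraries 2 and 3, at -0.11 and -0.57. Ptprb, Kdr, Flt1 and Notch1, which are among the longer genes with 13333, 9030, 13504 and 14232 exonic bases, were lowest in knockout library 1, whereas Esam and Cldn5, with 2867 and 1416 bases, were highest there. The part of length in single genes was not tested. Without knockout library 1 the set's median log2 fold change was 0.11, and with all libraries 0.03.

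**Figure D5:**
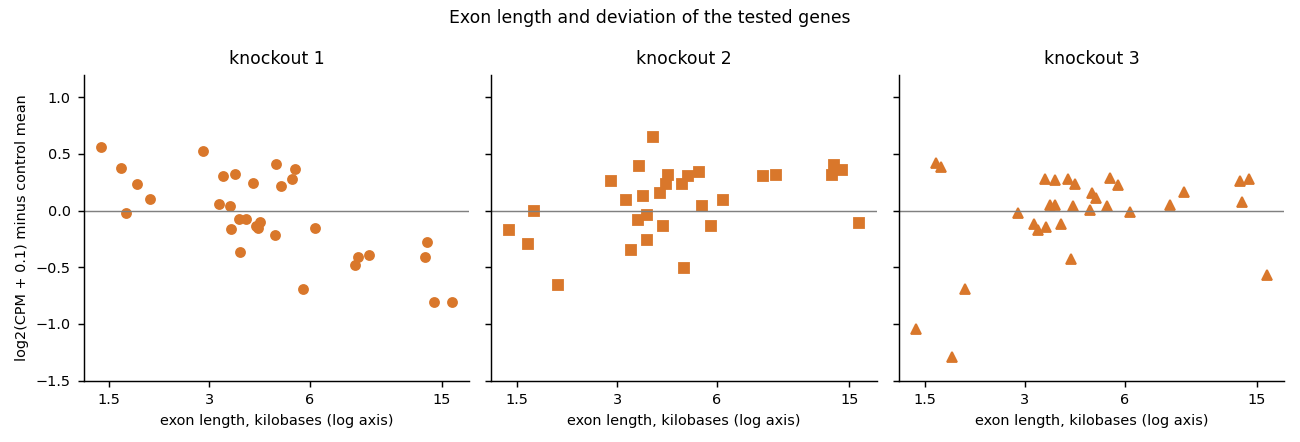
Exon length of each tested gene in kilobases (x axes, log scale) against its deviation from the control mean in knockout libraries 1, 2 and 3 (y axes, log2 of CPM plus 0.1); Prox1 in libraries 2 and 3 and Pdpn in library 2 lie below the range drawn. Points slope downwards in knockout library 1 (rho -0.68) and upwards in library 2 (rho 0.40).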

How the data were processed

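The 6 libraries were sequenced in pairs of reads, and the authors deposited a table of estimated counts per gene. Per the submitters' processing notes, StringTie, Salmon and edgeR were used with GRCm38; their versions and any use of strand were not given in the sources used. Gene identifiers were matched to GENCODE vM21 symbols (54131 of 54385 matched, 254 did not). The estimated counts as deposited were rounded and filtered (edgeR filterByExpr, minimum count 10, minimum total 15), scaled by TMM and tested across 14767 genes by genotype with edgeR's quasi-likelihood test (edgeR 4.0.16, R 4.3.3) and Benjamini-Hochberg adjustment at 0.05. SE and 95% intervals come from that fit. DESeq2 1.42.0, limma-voom (limma 3.58.1), other scalings, filters, left-out libraries and the replicate number as a block were alternatives. The test was checked on simulated data.

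The members and lists were chosen with earlier results of these data known. Values in every library are given for Pecam1, Cdh5, Kdr, Vwf, the lymphatic genes and the smallest p in each group. They are also given for members, partners and other endothelial markers whose groups do not overlap, and for the 4 smallest p of partners and other endothelial markers. Other per-library values were chosen after they were seen. Labels number the replicates but do not name animals, so p-values measure only the spread between these libraries. No pair of libraries within a group was a duplicate: chi-square per degree of freedom was 10.8 to 60.9. Control libraries were not compared with knockout libraries in this way. Totals of 13956786 to 17538044 put the floor of 3 counts at 0.172 to 0.203 CPM, for counting error only. Ratios within a library were compared with exact permutation tests.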

Additional observations from a re-analysis of the deposited data

How the results depend on the processing

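The set was refitted under 18 alternatives, 6 of them leaving out 1 library, and also read at an adjusted p under 0.1. No member was called higher under any of them. Members called lower were 0 except for 1, Prox1, with no low-count filter and without knockout library 1 (0 to 1 over the left-out libraries). The median log2 fold change of the set ranged from -0.08 to 0.13, against 0.03 in the main fit. The SD of the set's median between libraries of a group was 0.16. Fits without 1 library share all the others with the main fit, so their closeness to it is no test. Signalling partners called were 0 throughout. Other endothelial markers called were 1 with no low-count filter and 0 to 2 over the left-out libraries, with 2 without knockout library 1. Of all genes tested, 2.80% were called with no low-count filter and 5.64% without knockout library 1. Over all genes, 9 were called, against 18 with no scaling factors, 307 by DESeq2, 33 by limma-voom, 46 with robust dispersion, 893 with no low-count filter, 46 at an adjusted p under 0.1, and 4 to 857 over the left-out libraries, with 857 without knockout library 1; the cause was not tested.

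Of 32 members, 11 kept their direction throughout and 21 turned at least once. With no scaling factors the log2 fold changes became -0.0582 for Cdh5, -0.0096 for Ptprb, -0.0578 for Kdr, -0.0141 for Flt1, -0.0847 for Tek, -0.0257 for Erg, -0.0463 for Fli1, -0.10 for Sox17, -0.0690 for Gja4 and -0.0945 for Notch1. Under limma-voom they were 0.0123 for Rasip1 and -0.0492 for Notch1, and at a minimum of 1 CPM in 3 libraries -0.0061 for Notch1. Over the left-out libraries, log2 fold changes that turned were Pecam1 -0.0813 to 0.0421, Cdh5 -0.058 to 0.14, Cldn5 -0.57 to 0.22, Ptprb -0.0353 to 0.29, Rasip1 -0.21 to 0.16, Kdr -0.0997 to 0.23, Flt1 -0.0981 to 0.24, Tek -0.10 to 0.12, Angpt2 -0.10 to 0.0593, Erg -0.0281 to 0.17, Fli1 -0.16 to 0.15, Sox17 -0.20 to 0.30, Sox18 -0.033 to 0.46, Ramp2 -0.28 to 0.0708, Ednrb -0.0235 to 0.26, Aplnr -0.33 to 0.0565, Gja4 -0.23 to 0.43, Gja5 -0.43 to 0.033, Dll4 -0.16 to 0.44, Notch1 -0.19 to 0.30 and Flt4 -0.21 to 0.17. The ratios were refitted without each library, a choice made after seeing the data, and those whose log2 difference turned were Angpt2 over Tek -0.11 to 0.0956, Flt1 over Kdr -0.00784 to 0.11, Flt4 over Kdr -0.18 to 0.0712 and Dll4 over Notch1 -0.0543 to 0.51. All these values lay near 0 in the full data, and their cause of turning was not tested.

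With the replicate number as a block, 4 genes were called in all and no member. Rasip1 became 0.0080 and Notch1 -0.0538, Vwf was -0.50 (edgeR adjusted p = 0.442) and Prox1 -2.13 (edgeR adjusted p = 0.342). Same-numbered libraries correlated at 0.07, 0.11 and 0.05 in their deviations, not all above 0.1, so the numbers were not taken to pair the mice, although each library correlated best with its own number. Depth limits the scarce genes: Prox1 rested on 1 count in knockout library 2 and Mmrn1 on 0.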
